A study of Mus musculus with 6 samples.

Results

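Smooth muscle cells are told apart from other cells by a small set of contractile and cytoskeletal genes, and 10 of them, Acta2, Actg2, Tagln, Myh11, Cnn1, Smtn, Lmod1, Myl9, Des and Myocd, were followed here through 6 RNA-seq libraries of cultured mouse aortic cells. They were taken by symbol from a deposited table of 25683 genes, and all 10 symbols were found. Libraries 1 to 3 came from Nt5e knock-out cells and libraries 4 to 6 from Nt5e wild-type cells (Nt5e-WT). Nt5e encodes CD73, which makes adenosine from AMP at the cell surface. The cells of both genotypes are described as primary vascular smooth muscle, grown in 10% serum and then moved to 0.5% serum for 48 h, which the submitters call differentiation medium. Strain, sex and age are not given in the labels used here, and neither is the number of animals or cultures behind the 6 libraries. Each p-value therefore measures the spread among libraries alone, which may be technical.

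In smooth muscle, force comes from myosin filaments of Myh11 and its regulatory light chain Myl9 pulling on filaments of the muscle actins Acta2 and Actg2. Calponin (Cnn1), transgelin (Tagln), smoothelin (Smtn) and leiomodin 1 (Lmod1) bind or build those filaments, and desmin (Des) forms intermediate filaments that link them. Most of these genes are switched on by serum response factor (SRF), which binds DNA at a motif named the CArG box, together with its muscle coactivator myocardin (Myocd). Cultured smooth muscle cells are known to lose much of this programme, with Myh11, Cnn1 and Myocd among the genes that mark its mature state.

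The libraries held 19919095 to 23669252 exon reads. Nt5e, the targeted gene, had 22, 1 and 2 exon reads in knock-out libraries 1 to 3, against 615, 688 and 486 in wild-type libraries 4 to 6. Libraries of the same genotype were not equally alike. The biological coefficient of variation between 2 libraries, a measure of how far genes differ beyond counting noise, was 3.66% within the pair of knock-out libraries 2 and 3, and 3.49% within the pair of wild-type libraries 4 and 6. It was 44.6% and 45.1% between knock-out library 1 and knock-out libraries 2 and 3, and 43.7% to 48.0% between knock-out library 1 and the wild-type libraries. Results are therefore also given without knock-out library 1, and with libraries 2 and 3 summed and libraries 4 and 6 summed, which leaves 2 samples per genotype. The library titles begin with a stem that the labels do not explain. The summed libraries 2 and 3 differ in it, as do the summed libraries 4 and 6. Knock-out libraries 1 and 2 share a stem, as do wild-type libraries 5 and 6. Whether the summed libraries are separate cultures is not known. The titles also carry a number after the letter p, whose meaning the labels do not give. It is 11 for knock-out library 1 and wild-type libraries 4 and 5, and 12 for knock-out libraries 2 and 3 and wild-type library 6. The number thus parts knock-out library 1 from the other knock-out libraries, and values with it as a term in the fit are given where they move a fold change by over 1.5 times.

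The labelled cell type was set against its defining genes. Acta2, Myl9, Smtn and Tagln had at least 196 exon reads in every library, while Myocd and Des were at or near 0. Myocd had 5 exon reads summed over the knock-out libraries, against 2 in the wild type, and Des had 4 against 2. For Myh11 the sums were 126 in the knock-out, against 7 in the wild type. In RPKM, the authors' value, which is scaled by exon length and depth and so lets genes of different length be compared, Acta2 was the most abundant member in every library. Its RPKM was 32.0, 218 and 210 in knock-out libraries 1 to 3, against 30.2, 22.4 and 44.1 in wild-type libraries 4 to 6. Among all genes ordered by RPKM, Acta2 ranked 1922, 203 and 207 in the knock-out libraries and 2004, 2708 and 1316 in the wild-type libraries. Myl9, Smtn and Tagln followed. In the wild type the RPKM of Acta2 overlapped that of Myl9 (20.8 to 33.2), whose lowest value stood above all values of Smtn (14.8 to 17.5), which stood above those of Tagln (8.68 to 11.3). In knock-out libraries 2 and 3, Acta2 stood above Myl9 (26.9 and 25.3), Smtn (23.3 and 22.5) and Tagln (12.997 and 12.6), while in library 1 Myl9 (7.16) stood below Smtn (19.2) and Tagln (9.92). Lmod1 reached at most 3.72 RPKM and Cnn1 at most 1.16. Actg2, Myh11, Des and Myocd stayed at or below 0.474 RPKM in all 6 libraries.

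Over all genes, 12660 passed a filter on low counts and were tested for a difference between genotypes. By the quasi-likelihood test of edgeR, at a Benjamini-Hochberg adjusted p under 0.05, 3524 passed (27.8%). The knock-out was higher for 1788 (14.1%) and lower for 1736 (13.7%). With scaling by total counts alone, 40.1% of the called genes were higher in the knock-out, against 50.7% with TMM scaling. Of the 10 contractile genes, 6 passed the filter (Acta2, Tagln, Cnn1, Smtn, Lmod1 and Myl9). Smtn rose, Cnn1 fell and the other 4 did not pass, so 2 of 6 differed, a share near that of all tested genes. The median log2 fold change of the 6 was 0.44, against 0.02 over all tested genes. Genotypes did not overlap for Smtn and Cnn1 among these 6, while 49.7% of all tested genes had no overlap. In bulk RNA such as this, fewer cells of a type and less RNA per cell cannot be told apart.

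**Figure D1:**
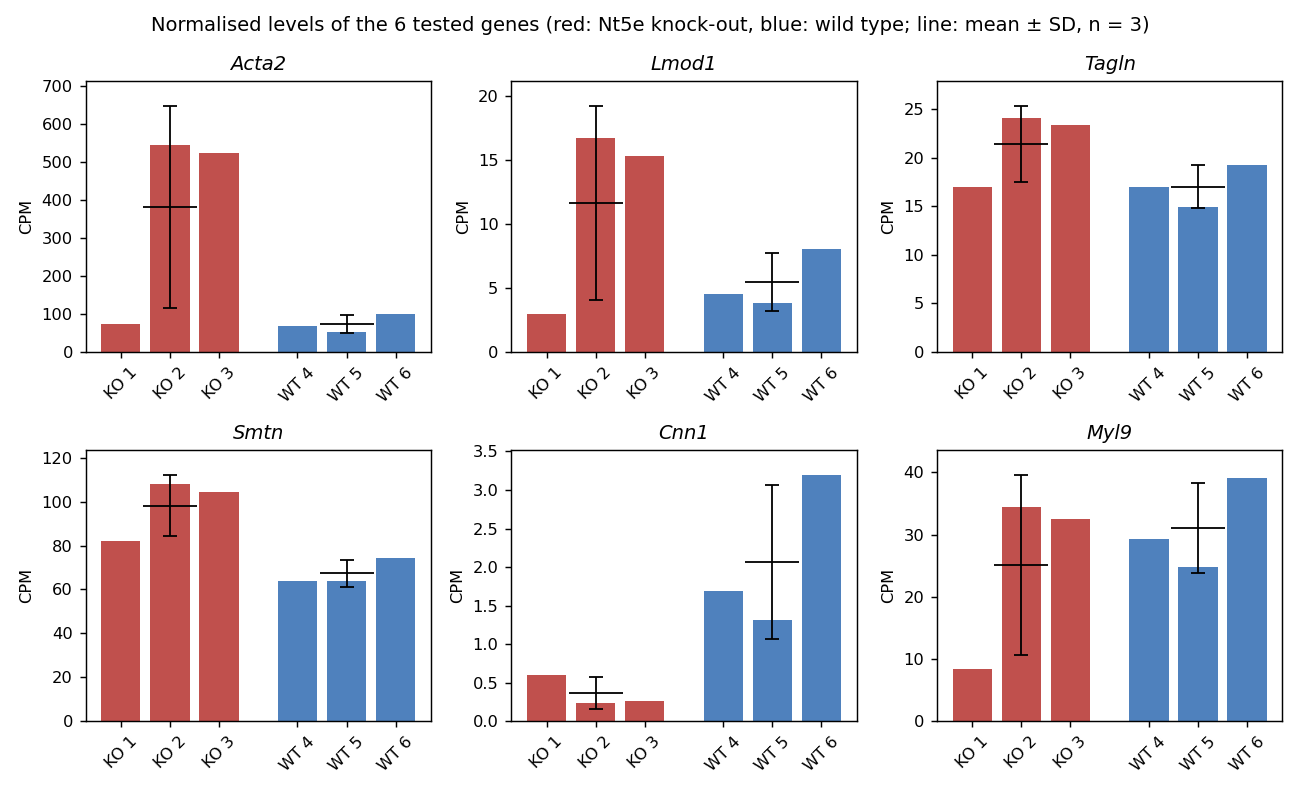
Normalised level (CPM, y axis) of the 6 tested contractile genes in each library, knock-out in red and wild type in blue, with the mean ± SD of each genotype (n = 3) as a black line. Acta2 and Lmod1 are high in knock-out libraries 2 and 3 only, Smtn is higher and Cnn1 lower in all 3 knock-out libraries, and Myl9 is low in knock-out library 1.

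Acta2, smooth muscle alpha-actin (ENSMUSG00000035783, chromosome 19, 34241090 to 34255590, minus strand, GRCm38), was high in knock-out libraries 2 and 3. It had 1705, 11583 and 9859 exon reads in knock-out libraries 1 to 3, against 1553, 1263 and 2180 in wild-type libraries 4 to 6. In counts per 1000000 reads (CPM), this was 73.8, 546 and 525 CPM in the knock-out, against 69.2, 51.9 and 101 CPM in the wild type. Knock-out library 1 lay inside the wild-type range, and libraries 2 and 3 lay above it at 7.23 times the wild-type mean. The mean was 381 ± 267 CPM in the knock-out and 74.1 ± 24.9 CPM in the wild type (SD, n = 3 each). The log2 fold change of 2.36 ± 0.75 (SE) did not pass (edgeR adjusted p = 0.0633). Leaving out knock-out library 1 gave 2.85 ± 0.25, which passed (edgeR adjusted p = 1.15e-04), in a comparison in which 66.2% of all tested genes passed. With the nearly identical pairs summed it was 2.16 ± 1.03 and did not pass (edgeR adjusted p = 0.335), in a comparison in which 0.13% of all tested genes passed. With the p number of the titles as a term it was 1.35 ± 0.55 and did not pass (edgeR adjusted p = 0.136).

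The reads of Acta2 came from spliced RNA and mapped to 1 place. All exon reads of all 10 contractile genes were counted as unique, which bears on the actins because their coding sequences are close to each other. Reads across exon junctions of Acta2 numbered 1287, 8826 and 7631 in knock-out libraries 1 to 3, against 1134, 926 and 1676 in wild-type libraries 4 to 6. They made up 75.5%, 76.2% and 77.4% of its exon reads in the knock-out, against 73.0%, 73.3% and 76.9% in the wild type. The junction reads showed the same pattern over libraries as the exon reads, of which they are a part, so this is no separate check.

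A pair of elements of the Acta2 start region are shown because they resemble the motif read by SRF, the factor on which this gene depends. They lie on the minus strand at chr19:34255438-34255467 and chr19:34255388-34255417 (RefSeq, GRCm38.p6), and capitals mark the match to the CArG box.
Acta2 upstream box: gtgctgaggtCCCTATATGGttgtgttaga
Acta2 downstream box: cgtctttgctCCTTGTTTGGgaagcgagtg
The boxes start 84 and 34 bases before a RefSeq start of Acta2, and both stretches fall within the first exon of a longer Acta2 transcript in GENCODE M21. The search took CC, 6 inner bases that are A or T with at most 1 exception, and GG, a pattern that reads the same on both strands, in the 250 bases before each start. At least 1 match was found in 8.59% of 32851 RefSeq promoters, and at least 2 matches in 0.67%. A promoter was at hand for 6 contractile genes, Acta2, Cnn1, Smtn, Lmod1, Myl9 and Des. Of these, Acta2 and Myl9 held matches, 2 each. Tagln, Actg2, Myh11 and Myocd had no promoter in the set and were not searched. A match describes the letters only, and binding of SRF was not measured here.

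Actg2, the gamma-actin of visceral smooth muscle (ENSMUSG00000059430, chromosome 6), had few reads. It had 3, 5 and 2 exon reads in knock-out libraries 1 to 3, against 0, 10 and 2 in wild-type libraries 4 to 6. The ratio of knock-out to wild type was 0.902 (exact 95% counting interval 0.349 to 2.28), and a difference was not detectable at this depth. Counting intervals cover counting error only.

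Among all actins, the RPKM share of Acta2 was 2.42%, 15.9% and 15.4% in knock-out libraries 1 to 3, against 2.40%, 1.82% and 3.29% in wild-type libraries 4 to 6. Nearly all the rest came from the cytoplasmic actins found in every cell. Actb rose in the knock-out, with 1757, 1595 and 1624 CPM against 1108, 1132 and 1142 CPM (log2 fold change 0.56 ± 0.08, edgeR adjusted p = 0.00767). Actg1 fell, with 1236, 1314 and 1281 CPM against 1776, 1736 and 1898 CPM (-0.50 ± 0.09, edgeR adjusted p = 0.0110). Neither genotype overlapped the other for these 2 genes, and knock-out library 1 moved with libraries 2 and 3, unlike in Acta2. Neither call held in edgeR with the pairs summed or without wild-type library 4, and the call of Actg1 was also lost without knock-out library 3 or wild-type library 6. The actins of skeletal and cardiac muscle, Acta1 and Actc1, had at most 2 exon reads in a library, and Actc1 had 0 in all 6.

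**Figure D2:**
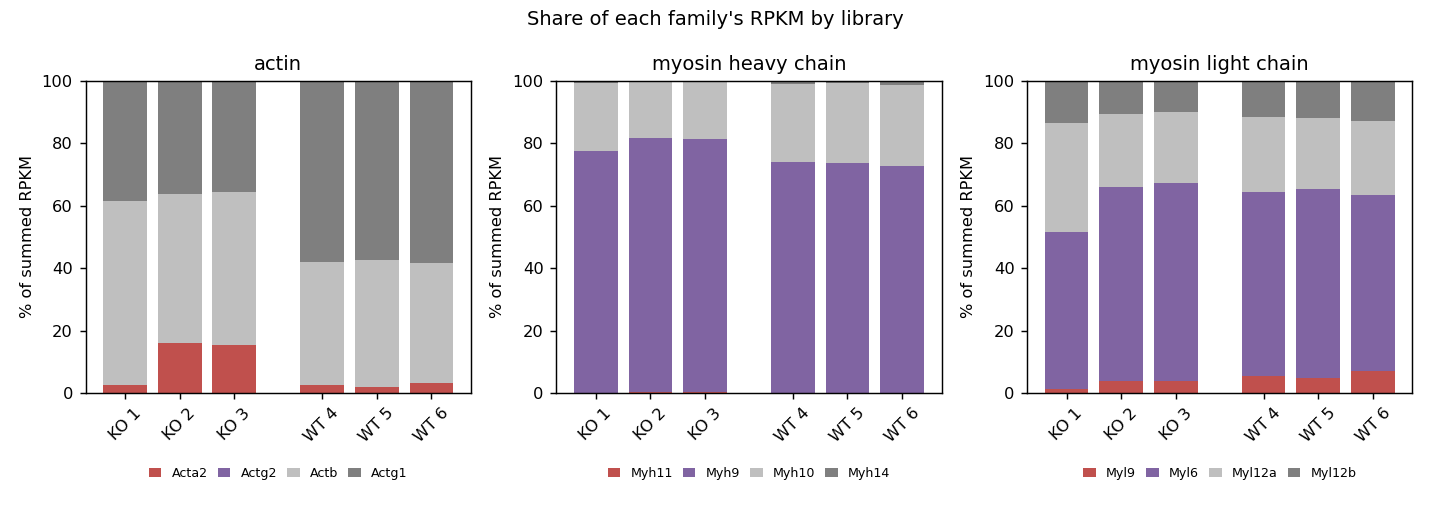
Share of the summed RPKM (y axis, percent) of actin, myosin heavy chain and myosin light chain genes in each library, knock-out libraries left and wild-type libraries right. Acta2 takes 15.9% and 15.4% of the actins in knock-out libraries 2 and 3 and at most 3.29% in the other 4, Myh11 is too small to see, and Myl9 takes least in knock-out library 1. Acta1 and Actc1 are included in the sum and not drawn.

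Myh11, smooth muscle myosin heavy chain (ENSMUSG00000018830, chromosome 16, 14194535 to 14291372, minus strand), followed Acta2 at a far lower level. It had 5, 54 and 67 exon reads in knock-out libraries 1 to 3, against 3, 3 and 1 in wild-type libraries 4 to 6. There were 3, 39 and 42 junction reads in knock-out and 2, 1 and 1 in wild-type libraries, so the reads came from spliced RNA. All knock-out values lay above all wild-type values, by 2 reads in library 1 and by more than 50 in libraries 2 and 3. Over each group the ratio of knock-out to wild type was 19.5, with an exact 95% counting interval of 9.19 to 49.5. The gene was below the count filter. With no filter its log2 fold change was 4.29 ± 1.09 (edgeR adjusted p = 0.0387), in a comparison in which 19.9% of genes passed. Without wild-type library 4, 5 or 6 it entered the test and did not pass (edgeR adjusted p of 0.119, 0.115 and 0.126), and it passed once knock-out library 1 was dropped (4.81 ± 0.42, edgeR adjusted p = 1.25e-04). In these fits Myh11 passed the count filter only through its reads in knock-out libraries 2 and 3. A call there is therefore no further support for a rise.

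Even in knock-out libraries 2 and 3, Myh11 made up 0.155% and 0.220% of the RPKM of 4 myosin heavy chain genes, against 0.0120% in knock-out library 1 and 0.00417% to 0.0130% in the wild type. Most of that RPKM sum came from the nonmuscle myosin Myh9, at 72.9% to 81.5%, and Myh10 made up 18.4% to 26.0%. Myh9 rose in the knock-out, with 1602, 1523 and 1501 CPM against 871, 817 and 923 CPM (log2 fold change 0.83 ± 0.09, edgeR adjusted p = 0.00311), a call that was lost with the pairs summed.

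**Figure D3:**
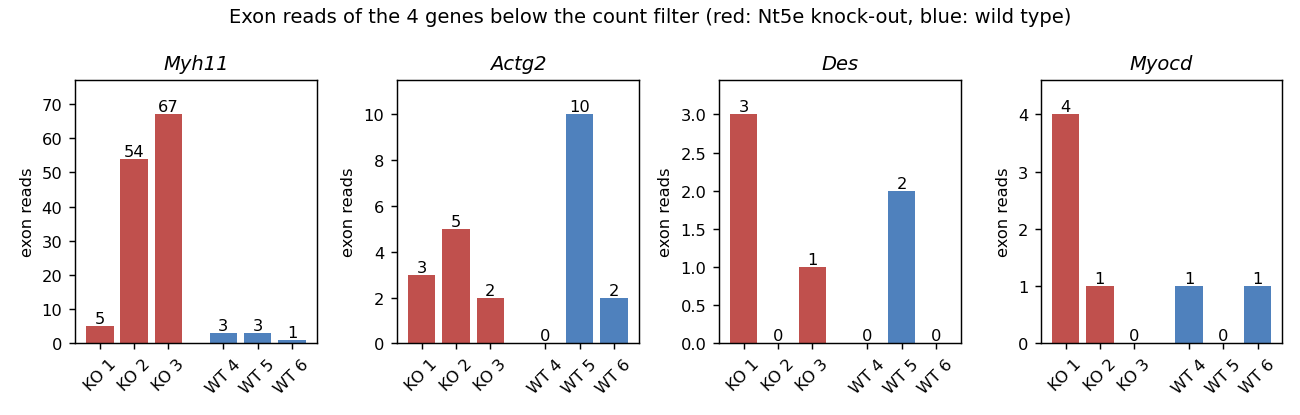
Exon reads (y axis) in each library of the 4 contractile genes below the count filter, knock-out in red and wild type in blue, with the number of reads above each bar. Knock-out libraries 2 and 3 hold 54 and 67 reads of Myh11 and no other library more than 5, while Actg2, Des and Myocd stay at 10 reads or fewer in every library.

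Myl9, the regulatory light chain of smooth muscle myosin (ENSMUSG00000067818, chromosome 2, 156775420 to 156781658, plus strand), set knock-out library 1 apart in the other direction. It had 196, 732 and 610 exon reads in knock-out libraries 1 to 3, against 658, 604 and 843 in wild-type libraries 4 to 6. That was 8.48, 34.5 and 32.5 CPM in the knock-out, against 29.3, 24.8 and 39.1 CPM in the wild type. Library 1 lay below all others at 0.273 times the wild-type mean, and libraries 2 and 3 lay inside the wild-type range. Being lowest in library 1 was common, as 23% of all tested genes were. The log2 fold change of -0.31 ± 0.52 did not pass (edgeR adjusted p = 0.681), and without knock-out library 1 it was 0.10 ± 0.18 (edgeR adjusted p = 0.631). With the p number as a term it was -0.93 ± 0.36 (edgeR adjusted p = 0.121).

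The promoter of Myl9 is shown because it held the only exact CArG box among the 6 searched promoters of contractile genes, beside another box with 1 inner base off. Tagln was not among those searched. An exact box was found in 1.47% of the 32851 promoters. The stretch is chr2:156775214-156775419, plus strand (RefSeq, GRCm38.p6), up to the first annotated exon. Capitals mark the boxes, the exact one starting 161 and the other 99 bases before the RefSeq start.
Myl9: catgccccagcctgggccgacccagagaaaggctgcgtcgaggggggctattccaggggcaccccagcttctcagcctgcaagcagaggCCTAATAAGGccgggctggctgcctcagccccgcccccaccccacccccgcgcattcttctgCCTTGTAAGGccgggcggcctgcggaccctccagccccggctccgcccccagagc

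The nonmuscle regulatory light chains Myl12a and Myl12b are near-identical, so their levels are uncertain. Only 66.1% to 67.4% of the exon reads of Myl12a were unique, and 36.4% to 42.0% of those of Myl12b. Of 7 nonmuscle and shared myosin genes, 4 rose and 0 fell (edgeR; 4 and 0 at an unadjusted p under 0.05 and 4 and 0 in DESeq2), where 14.1% of all tested genes rose, with a median log2 fold change of 0.50. With the pairs summed 0 of 7 passed in edgeR, and without wild-type library 4, 2 passed. For Myl12a the log2 fold change was 0.78 ± 0.11 (edgeR adjusted p = 0.00719).

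Lmod1, leiomodin 1, which seeds actin filaments in smooth muscle (ENSMUSG00000048096, chromosome 1, 135324807 to 135368065, plus strand), also differed between knock-out libraries. It had 68, 355 and 287 exon reads in knock-out libraries 1 to 3, against 102, 93 and 173 in wild-type libraries 4 to 6. That was 2.94, 16.7 and 15.3 CPM in the knock-out, against 4.55, 3.82 and 8.01 CPM in the wild type. Library 1 lay below all wild-type values and libraries 2 and 3 above them. The log2 fold change of 1.09 ± 0.66 did not pass (edgeR adjusted p = 0.258). It was 1.55 ± 0.29 without knock-out library 1 and passed (edgeR adjusted p = 0.00346). With the pairs summed it was 0.92 ± 0.89 and did not pass (edgeR adjusted p = 0.606), and with the p number as a term it was 0.27 ± 0.39 (edgeR adjusted p = 0.639). Libraries 2 and 3 averaged 5.44 times library 1 for Lmod1, 7.25 times for Acta2 and 3.95 times for Myl9, and 7.03% of all tested genes had such a ratio of at least 2.

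Smtn, smoothelin, an actin-associated protein of contractile smooth muscle (ENSMUSG00000020439, chromosome 11, 3517523 to 3540612, minus strand), rose modestly. It had 1898, 2292 and 1960 exon reads in knock-out libraries 1 to 3, against 1431, 1548 and 1605 in wild-type libraries 4 to 6. That was 82.2, 108 and 104 CPM in the knock-out, against 63.8, 63.6 and 74.4 CPM in the wild type. Every knock-out value lay above every wild-type value, with library 1 nearest to the wild type. The log2 fold change was 0.55 ± 0.13 (edgeR adjusted p = 0.0296), a rise of 1.46-fold. Junction reads, which are a part of the exon reads, showed the same order. They numbered 1372, 1632 and 1439 in the knock-out, against 1018, 1098 and 1182 in the wild type. The call was lost when knock-out library 2, knock-out library 3 or any wild-type library was left out (edgeR adjusted p 0.0646 to 0.119) and with the pairs summed (0.51 ± 0.18, edgeR adjusted p = 0.244).

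Tagln, transgelin or SM22, an actin-binding protein (ENSMUSG00000032085, chromosome 9, 45929619 to 45936058, minus strand), had its highest values in knock-out libraries 2 and 3. It had 391, 510 and 438 exon reads in knock-out libraries 1 to 3, against 380, 362 and 415 in wild-type libraries 4 to 6. That was 16.9, 24.0 and 23.3 CPM in the knock-out, against 16.9, 14.9 and 19.2 CPM in the wild type. Library 1 lay inside the wild-type range and libraries 2 and 3 above it. The log2 fold change of 0.33 ± 0.18 did not pass (edgeR adjusted p = 0.202). It passed once knock-out library 1 was dropped (0.47 ± 0.11, edgeR adjusted p = 0.0104) but not with the pairs summed (0.31 ± 0.25, edgeR adjusted p = 0.547). The end of Tagln overlaps that of Pcsk7 on the other strand, and with no strand setting known for the counting, reads there are uncertain.

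Cnn1, calponin 1, an actin-binding marker of mature smooth muscle (ENSMUSG00000001349, chromosome 9, 22099216 to 22109630, plus strand), was lower in the knock-out. It had 14, 5 and 5 exon reads in knock-out libraries 1 to 3, against 38, 32 and 69 in wild-type libraries 4 to 6. That was 0.606, 0.236 and 0.266 CPM in the knock-out, against 1.69, 1.32 and 3.20 CPM in the wild type. All knock-out values lay below all wild-type values, and libraries 2 and 3, where Acta2 was highest, were lowest. It fell by 2.45 ± 0.55 on the log2 scale (edgeR adjusted p = 0.0246), to 0.183 times the wild type. Junction reads numbered 2, 3 and 1 in the knock-out, against 21, 17 and 32 in the wild type. The level was low in every library, and the call was lost when knock-out library 2, knock-out library 3, wild-type library 4 or wild-type library 6 was left out (edgeR adjusted p 0.0769 to 0.0879) and with the pairs summed (-2.15 ± 0.70, edgeR adjusted p = 0.219).

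The start regions of Cnn1, Smtn and Lmod1 are shown for comparison with Acta2 and Myl9, since none of these 3 held a CArG box by the search above. That says only that these letters are not in the 250 bases searched. They are chr9:22099003-22099215 on the plus strand, chr11:3539324-3539542 on the minus strand and chr1:135324563-135324806 on the plus strand (RefSeq, GRCm38.p6), each ending before an annotated exon. The Smtn stretch lies inside the annotated gene, at one of its inner starts.
Cnn1: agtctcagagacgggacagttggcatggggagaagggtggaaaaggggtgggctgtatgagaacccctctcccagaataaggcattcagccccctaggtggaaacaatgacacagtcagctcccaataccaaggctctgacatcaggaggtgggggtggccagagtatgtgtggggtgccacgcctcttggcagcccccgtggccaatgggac
Smtn: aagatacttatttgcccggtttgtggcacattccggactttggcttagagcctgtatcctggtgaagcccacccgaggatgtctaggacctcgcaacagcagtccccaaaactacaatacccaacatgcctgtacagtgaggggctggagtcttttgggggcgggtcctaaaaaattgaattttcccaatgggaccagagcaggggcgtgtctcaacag
Lmod1: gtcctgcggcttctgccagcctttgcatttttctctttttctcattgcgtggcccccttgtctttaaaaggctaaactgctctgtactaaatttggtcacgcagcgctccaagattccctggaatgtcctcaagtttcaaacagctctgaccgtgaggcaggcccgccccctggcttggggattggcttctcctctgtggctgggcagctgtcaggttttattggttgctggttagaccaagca

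**Figure D4:**
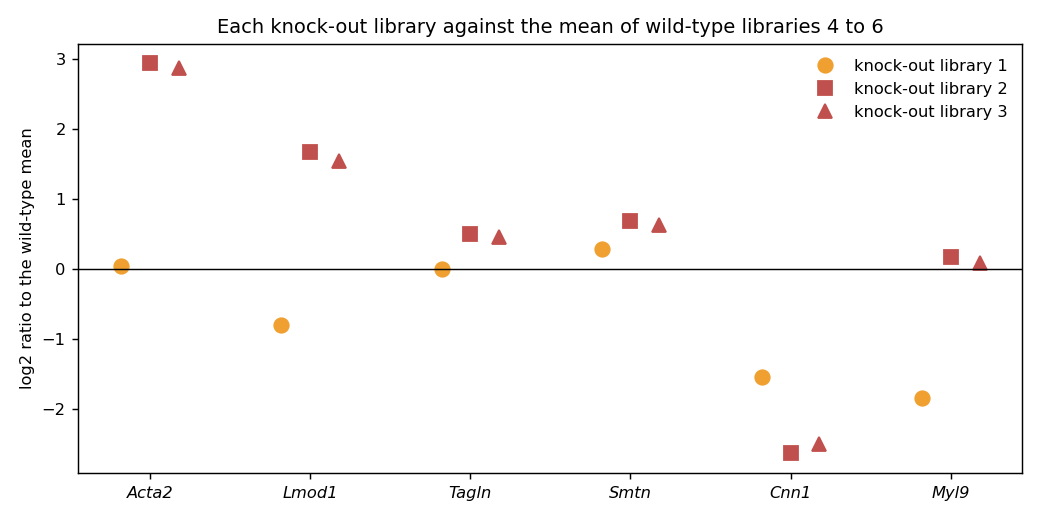
Difference in log2 CPM (y axis) of each knock-out library from the mean of wild-type libraries 4 to 6, for the 6 tested contractile genes. Knock-out library 1 lies near 0 for Acta2 (0.05) and Tagln (-0.00), and below it for Lmod1, Cnn1 and Myl9, while libraries 2 and 3 lie together above 0 for every gene drawn except Cnn1.

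**Figure D5:**
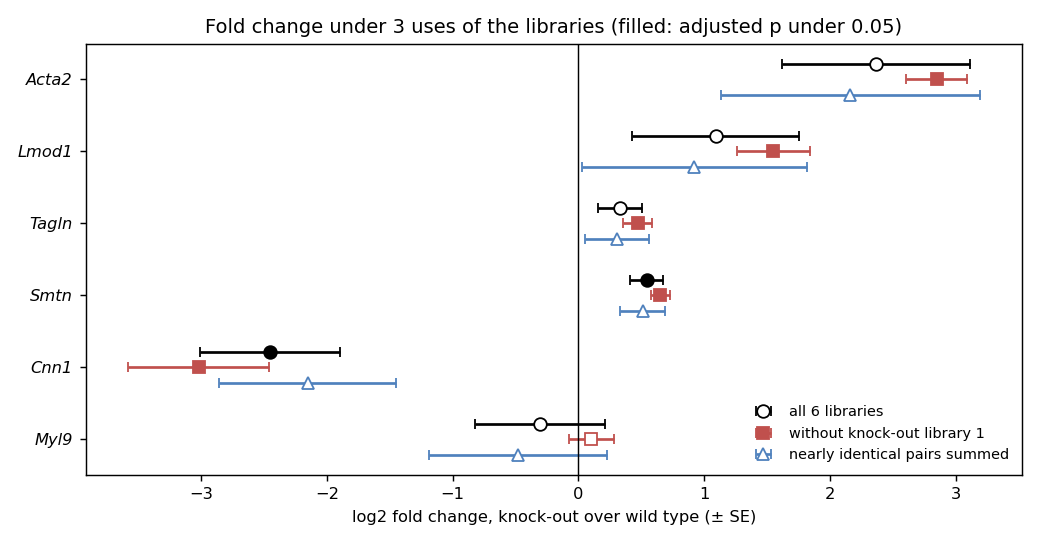
Log2 fold change ± SE (x axis) of the 6 tested genes, knock-out over wild type, with all 6 libraries, without knock-out library 1 and with nearly identical pairs summed. Filled symbols have an edgeR adjusted p under 0.05, which holds for Smtn and Cnn1 with all libraries, for all but Myl9 without library 1, and for none with pairs summed.

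Without knock-out library 1, 6 of 7 tested contractile genes passed, 5 higher (Acta2, Tagln, Myh11, Smtn and Lmod1) and 1 lower (Cnn1), where 66.2% of all tested genes passed, 32.6% higher and 33.7% lower. Myh11 is in that count only because its reads in knock-out libraries 2 and 3 took it past the filter, so its call is not support. With the pairs summed 0 of 6 passed in edgeR, and 2 had an unadjusted p under 0.05. DESeq2 on all 6 libraries called 4 of 8, Acta2, Myh11 and Smtn higher and Cnn1 lower, where 33.9% of all genes with an adjusted p passed, 17% higher and 16.9% lower. Leaving out knock-out library 2 or knock-out library 3 left 0 members called in edgeR (2 each at an unadjusted p under 0.05), where 12.5% and 12.8% of all tested genes passed. Omitting wild-type library 4 left 0 (8.71% of all genes), omitting library 5 left 1 (13%) and omitting library 6 left 0 (10.8%), with 3, 3 and 4 members at an unadjusted p under 0.05. A filter of 50 reads in 3 libraries left 1 of 5 members called (28.8% of all genes). The titles carry a further number, 1 or 2, after the p number, and the labels do not explain it. With that number as a block, 3 of 6 passed (35.6%). With only the 4 libraries in which it is 2, which are the nearly identical pairs, 6 of 7 passed (73%). Myh11 was again tested there only through its reads in knock-out libraries 2 and 3.

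The 2 members with the fewest reads were the intermediate filament gene Des (ENSMUSG00000026208, chromosome 1) and the coactivator gene Myocd (ENSMUSG00000020542, chromosome 11). Des had 3, 0 and 1 exon reads in knock-out libraries 1 to 3, against 0, 2 and 0 in wild-type libraries 4 to 6. Myocd had 4, 1 and 0 exon reads in the knock-out, against 1, 0 and 1 in the wild type. The ratio of knock-out to wild type was 2.17 (95% counting interval 0.310 to 23.9) for Des and 2.71 (0.443 to 28.4) for Myocd, and a difference was not detectable at this depth. In knock-out libraries 2 and 3, where Acta2 and Myh11 were highest, neither gene had more reads than in knock-out library 1.

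Other regulators of the programme were measured well. Of 28 listed genes for SRF, its partners and other transcription regulators of smooth muscle, 26 were tested and 11 rose while 0 fell (edgeR; 14 and 0 at an unadjusted p under 0.05, and 13 and 0 in DESeq2), where 14.1% of all tested genes rose and 13.7% fell. The median log2 fold change was 0.46. The list does not sort its genes into activators and repressors, so these counts give no direction for the programme. Srf measured 46.9, 69.8 and 63.5 CPM in knock-out libraries 1 to 3, against 29.3, 34.7 and 31.7 CPM in the wild type, and rose (log2 fold change 0.91 ± 0.16, SE, as in the values that follow; edgeR adjusted p = 0.0123). Its other coactivators Mrtfa (0.48 ± 0.23, edgeR adjusted p = 0.175) and Mrtfb (0.18 ± 0.11, 0.254) did not pass. Mrtfa stood at 63.0, 115 and 114 CPM in the knock-out, so that library 1 was lower than the 71.0, 67.9 and 70.2 CPM of the wild type and libraries 2 and 3 were higher. The largest rises on the list were those of Nfatc1, a calcium-regulated transcription factor (2.39 ± 0.47, edgeR adjusted p = 0.0163), and Csrp2, a LIM protein that works with SRF (1.95 ± 0.23, edgeR adjusted p = 0.00381). The counts were 19 higher and 4 lower without knock-out library 1, where 32.6% and 33.7% of all tested genes were. With the pairs summed 0 of 27 passed. Leaving out wild-type library 4, 5 or 6 left 3, 7 and 6 higher.

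Of 20 genes that switch the myosin light chain on and off, 3 rose (15%) and 2 fell (10%), shares near the 14.1% and 13.7% of all tested genes, with a median log2 fold change of 0.13. Mylk, the kinase that activates Myl9, measured 11.7, 33.4 and 36.8 CPM in knock-out libraries 1 to 3, against 19.9, 45.8 and 21.5 CPM in the wild type, a difference that did not pass (-0.09 ± 0.52, edgeR adjusted p = 0.906). Ilk (0.64 ± 0.10, edgeR adjusted p = 0.00835) and Arhgef11, an activator of RhoA (0.47 ± 0.07, 0.00732), rose. Prkg1, the cGMP-dependent kinase that relaxes smooth muscle, fell (-2.85 ± 0.76, edgeR adjusted p = 0.0395), with 10.7, 3.86 and 3.72 CPM in the knock-out against 22.3, 88.3 and 22.005 CPM in the wild type. Ppp1r14b, a phosphatase inhibitor, fell as well (-0.51 ± 0.14, edgeR adjusted p = 0.0416). The counts were 11 higher and 3 lower without knock-out library 1, where 32.6% and 33.7% of all tested genes were. With the pairs summed 0 of 20 passed. Leaving out wild-type library 4 left 0 called, and leaving out any 1 of the other 4 libraries left 2, both of them rises. The falls of Prkg1 and Ppp1r14b were thus not called with the pairs summed. Neither were they called when a library other than knock-out library 1 was left out.

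Of 40 other genes enriched in differentiated smooth muscle, 31 were tested, 7 rose and 4 fell, where 14.1% and 13.7% of all tested genes did, with a median log2 fold change of 0.22. Tns1, which joins integrins to actin, rose to 939, 737 and 739 CPM in knock-out libraries 1 to 3, against 209, 210 and 233 CPM in the wild type (1.89 ± 0.13, edgeR adjusted p = 8.16e-04). Nexn, an actin-binding protein, rose too (1.59 ± 0.22, edgeR adjusted p = 0.00648). Gucy1a1, a subunit of the nitric oxide receptor guanylate cyclase that acts upstream of Prkg1, fell to 34.1, 9.90 and 10.7 CPM, against 145, 128 and 155 CPM in the wild type (-2.96 ± 0.53, edgeR adjusted p = 0.0122). Atp2b4, a calcium pump of the cell membrane, fell (-3.40 ± 0.70, edgeR adjusted p = 0.0186). The counts were 15 higher and 8 lower without knock-out library 1, where 32.6% and 33.7% of all tested genes were. With the pairs summed 0 of 31 passed. Leaving out knock-out library 2, wild-type library 4 or wild-type library 6 left 7, 6 and 7 called.

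Markers of mesothelial and epithelial cells moved with genotype. Of 16 mesothelial and epithelial markers, 13 were tested and 12 fell in the knock-out, where 13.7% of all tested genes fell. The 16 summed to 287 to 915 CPM in the knock-out libraries against 3252 to 3515 CPM in the wild-type libraries. Knock-out library 1, whose Acta2 and Lmod1 lay at or below the wild type, had the 915 CPM, and libraries 2 and 3 had 287 and 296 CPM. Krt8, Krt18 and Muc16 had 0 reads in the knock-out and Krt5 in the wild type. Msln stood at 44.0, 0.990 and 1.38 CPM in the knock-out against 773, 808 and 778 CPM in the wild type. Lrrn4 stood at 52.1, 13.7 and 12.6 CPM against 650.5, 605 and 688 CPM, and Tspan8 at 0.130, 0.0943 and 0.0532 CPM against 220, 247 and 207 CPM. With the pairs summed 3 of the 13 still passed, all lower. The part of these markers in the results for contractile genes was not tested.

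Fibroblast markers summed to 6184, 16874 and 18905 CPM in knock-out libraries 1 to 3, against 6488, 6530 and 6523 CPM in the wild type, so libraries 2 and 3 stood apart here as they did for Acta2. Of 15, 14 were tested, 2 rose and 1 fell, where 14.1% and 13.7% of all tested genes did, and none was at 0. Without knock-out library 1, 9 rose and 3 fell, where 32.6% and 33.7% of all tested genes did. Col3a1 stood at 161, 6244 and 7291 CPM in the knock-out against 939, 754 and 1004 CPM in the wild type, and Dcn at 2948, 2462 and 2502 CPM against 2647, 2311 and 2511 CPM. Pi16 (4.95 ± 0.72, edgeR adjusted p = 0.00702) and Pdgfra (0.50 ± 0.14, 0.0484) rose, and Thy1 fell (-2.76 ± 0.14, 4.14e-04). With total-count scaling, or without any 1 library other than knock-out library 1, only 1 fibroblast marker was called higher and 1 lower. Pericyte and mural markers summed to 386, 1009 and 1055 CPM in the knock-out against 229, 244 and 233 CPM in the wild type. Most of each sum came from 1 gene, Pdgfrb. Of 10, 6 were tested, 3 rose and 1 fell, where 14.1% and 13.7% of all tested genes did. Pdgfrb stood at 311, 951 and 995 CPM against 180, 192 and 182 CPM. Cspg4 rose (5.54 ± 0.60, edgeR adjusted p = 0.00316), Kcnj8 fell (-7.00 ± 0.94, 0.00562) and Rgs5 did not pass (-0.92 ± 0.44, 0.167). Abcc9, Higd1b and Vtn had 0 reads in the knock-out, and Higd1b and Vtn in the wild type too. With the pairs summed 0 of 15 fibroblast and 0 of 6 pericyte markers passed in edgeR, and 2 pericyte markers passed without knock-out library 3 or any 1 wild-type library. The part of these markers was not tested either.

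Leukocyte and endothelial markers were low. The counts of called markers below stand beside 14.1% of all tested genes higher and 13.7% lower in the knock-out. Leukocyte markers summed to 22.03 to 25.3 CPM in the knock-out against 60.5 to 70.4 CPM in the wild type. Of 10, 4 were tested, 1 rose (Lyz2) and 2 fell (Cd14 and Cd68), and Ptprc, Adgre1, Itgam and C1qa had 0 reads in all libraries. Endothelial markers summed to 4.03 to 7.71 CPM against 2.04 to 3.62 CPM. Of 12, 2 were tested, Kdr, which rose, and Egfl7, and Tie1, Sox17 and Cldn5 had 0 reads in all libraries. Skeletal and cardiac muscle markers summed to 13.2 to 31.1 CPM against 10.5 to 13.4 CPM. Of 20, 4 were tested, 1 rose and 1 fell, and Myod1, Myog, Ckm, Myh1 and Myh6 had 0 reads in all libraries. With the pairs summed no leukocyte, endothelial, skeletal or cardiac marker passed in edgeR, and Kdr did not pass without wild-type library 5 or 6.

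Genes whose log2 CPM followed single members most closely over the 6 libraries were found among the 12660 tested genes, by Pearson's r as a measure of likeness. For Acta2 they included Shprh (0.999) and 2010300C02Rik (0.998), for Tagln they were Eif4g3, Fastkd5 and Proser3 (0.997 to 0.998), and for Smtn they were Zfp963, Ssh2 and Mdc1 (0.997 to 0.998). For Cnn1 they were Ppox, Tmem200b and Dgke (0.992 to 0.996), and for Myl9 they were Purb, Chmp1b and Mboat7 (0.997 to 0.998). The 6 libraries fall into near-identical pairs and 2 others, so high values were common, and 834 genes exceeded 0.95 with Acta2, 787 with Smtn, 369 with Cnn1, 216 with Tagln and 126 with Myl9.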

How the data were processed

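Gene-level RNA-seq values of 6 libraries were analysed. Per the labels, RNA was poly(A)-selected and libraries were made with a stranded kit. The deposited table gives whole-number read counts per gene made by the authors (total, unique, exon junction and intron reads) and RPKM by the authors. The submitters' processing notes name GRCm38 (mm10) as the build; no aligner, counter or strand setting is given in the sources used here. All 10 members had the same coordinates in GENCODE M21.

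Total exon reads (19919095 to 23669252 per library) went through filterByExpr (minimum count 10), TMM scaling and the quasi-likelihood test of edgeR 4.0.16 (R 4.3.3), fitting genotype alone. Benjamini-Hochberg adjustment covered all 12660 genes, with a threshold of 0.05. CPM divide counts by TMM-adjusted library sizes; their log2 values carry a prior count of 2. SE is the log2 fold change over the square root of F. Ratios of group sums carry exact conditional 95% intervals. The scripts were tested on simulated data. The alternatives were DESeq2 1.42.0 and its size factors, limma-voom (limma 3.58.1), total-count scaling, no filter, 50 reads in 3 libraries and unique reads. Further ones were either title number as a term, pairs summed, libraries whose titles have a 2 after the p number, and leaving out each library.

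Members and lists were chosen with earlier results of these data known. Named genes are the members, Nt5e, up to 2 called rises and falls per list, up to 2 markers of highest mean CPM per marker list, some fixed regulators and isoforms, and the 3 genes most like each of 5 members, of which 1 is not reported here.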

Additional observations from a re-analysis of the deposited data

Results flagged for a closer look

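Intron reads entered no test above. Members were picked here if their intron reads were higher in every knock-out library than in every wild-type library, and Acta2 was so picked. Its lack of overlap is therefore the rule of choice and no further support. The share of all genes with that pattern was not taken. The intron reads of Acta2 numbered 41, 189 and 176 in knock-out libraries 1 to 3, against 19, 25 and 36 in wild-type libraries 4 to 6. Per 1000000 exon reads of the library the mean was 6.35 in the knock-out and 1.22 in the wild type. Knock-out library 1, at 1.80, lay just above wild-type library 6, at 1.73.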

How the results depend on the processing

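The 3524 genes and 2 members called in edgeR became 17 and 0 with nearly identical pairs summed (2 of 6 members had an unadjusted p under 0.05). They became 9286 and 6 with only the libraries whose titles have a 2 after the p number. Leaving out 1 library at a time gave 1120 to 8486 genes and 0 to 6 members, with the highest counts without knock-out library 1. Both counts of 6 members include Myh11, which passed the filter there only through knock-out libraries 2 and 3. DESeq2 called 4 members, and a filter of 50 reads in 3 libraries, which drops Cnn1, called 1. Beyond these, the other settings kept both counts within 1.5 times. The log2 fold change of Myl9 was -0.60 to 0.10 when 1 library was left out, and turned to 0.10 without knock-out library 1, and no other tested member's changed sign in any setting run. The replicate numbers of the labels, 1 to 6, are not shared between genotypes, but title numbers are. With the title number that follows the p number as a replicate block, 4510 genes and 3 members passed, Acta2 among them (1.97, edgeR adjusted p = 0.0378). Deviations of libraries that share that number correlated at -0.06 to 0.02, so the block is not read as a pairing. With the p number as a term the fold changes of Acta2 (1.35), Lmod1 (0.27) and Myl9 (-0.93) moved by over 1.5 times. Depth limits Actg2, Des and Myocd, at 10 reads or fewer in each library.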

Other observations

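Genes known to rise when smooth muscle cells dedifferentiate moved both ways. Of 24 listed, 21 were tested, 5 rose (23.8%) and 3 fell (14.3%) in the knock-out, with a median log2 fold change of 0.60. Over all tested genes 14.1% rose and 13.7% fell, so the share that fell was near that of all genes. Sox9, a chondrogenic transcription factor, measured 22.7, 48.7 and 52.2 CPM in knock-out libraries 1 to 3, against 11.2, 12.8 and 11.9 CPM in the wild type (1.78 ± 0.32, edgeR adjusted p = 0.0127). Cd44, a hyaluronan receptor, rose as well (1.13 ± 0.24, edgeR adjusted p = 0.0207). Spp1, osteopontin, fell to 6.97, 1.98 and 1.38 CPM in the knock-out, against 333, 2315 and 298 CPM in the wild type (-8.14 ± 1.34, edgeR adjusted p = 0.00985). Krt8 had 0 reads in the knock-out and 43 in the wild type, at least 13.2-fold lower with the knock-out group set at 3 reads. Without knock-out library 1, 10 rose and 6 fell, where 32.6% and 33.7% of all tested genes did. With nearly identical pairs summed 0 of 21 passed (edgeR). Omitting knock-out library 2 or knock-out library 3 left 4 called each, omitting wild-type library 5 left 3, and omitting library 4 or 6 of the wild type left 2 each.

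Among skeletal and cardiac muscle markers, Tnnt2, cardiac troponin T, stood at 8.05, 28.1 and 27.4 CPM in the knock-out, against 0.134, 0.123 and 0.510 CPM in the wild type (6.36 ± 0.79, edgeR adjusted p = 0.00453). Myl7, the atrial light chain, stood at 0.433, 0.141 and 0 CPM in the knock-out, against 6.91, 7.69 and 7.27 CPM in the wild type (-5.15 ± 0.81, edgeR adjusted p = 0.00871). With nearly identical pairs summed 0 of 5 tested markers of this list passed.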
